A study of Mus musculus with 16 samples.

Results

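Type 1 conventional dendritic cells (cDC1s) take up antigen and cross-present it to cytotoxic T cells. Their microRNA repertoire in the absence of any gene deletion was described in 8 wild-type libraries, out of 16 small RNA libraries of splenic cDC1s in all. The libraries were chosen by their labels alone. Each came from C57BL6 mouse spleen. They formed a pair of groups of 4, the wild type of the line made for loss of Xbp1 (Xbp1-line wild type, replicates 4, 5, 6 and 8) and the wild type of the line made for loss of both Ire1a and Xbp1 (compound-line wild type, replicates 1, 2, 3 and 4). The labels used here name no treatment, age or Cre driver and leave unsaid if each replicate is its own mouse, so the spread between libraries may be partly technical. The 8 libraries of deficient cells were left out of every level given here. The table holds mature microRNAs only, so the sorted cell type could not be checked against messenger RNA markers.

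A microRNA is cut from a hairpin precursor by DROSHA and DICER, and 1 strand of the resulting duplex, the guide, is loaded into an Argonaute protein while the other strand is mostly degraded. The guide pairs with messenger RNAs through its seed, the bases near its 5′ end, and lowers their translation and stability, so microRNAs with a common seed form a family with overlapping targets. In dendritic cells microRNAs are known to tune development, cytokine output and antigen presentation. Because Argonaute proteins are shared among all microRNAs of a cell, those that take a large share of the pool are usually the ones with measurable effects on their targets.

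Each microRNA is given by its miRBase identifier, since neither table says which name or sequence belongs to an identifier. The reference table of named mature microRNAs lists no miRBase identifier, and 0 of the 853 identifiers in the count table could be matched to a name, so shares by seed family and ratios of guide to passenger strand were not analysed here. No name, role or sequence is attached to an identifier for the same reason.

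The total number of microRNA reads ranged from 332923 to 1103001 per library, with a median of 624616. It averaged 825763 ± 322500 (SD, n = 4) in the Xbp1-line and 518607 ± 252471 in the compound-line wild type, and the ranges overlapped. A count of 3 reads, the limit that a count of 0 allows, corresponds to 0.000272% of the deepest library and 0.000901% of the shallowest, for counting error only.

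The repertoire was concentrated in very few microRNAs. Of the 853 identifiers, 687 had at least 1 read in a wild-type library, 233 were read in all 8 libraries and 172 in a single library, with at most 13 reads there. In each library those 233 took at least 99.8% of all reads. A further 166 were at 0 in all 8 wild-type libraries. The number read per library ran from 319 to 451, and from 319 to 426 after each library was thinned to 332923 reads. Both highest values came from compound-line wild type 2 and both lowest from compound-line wild type 4, which is also the shallowest library. At the equal depth after thinning, the other libraries had 351 to 426, against its 319.

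The share taken by the single most abundant microRNA was 23.8% ± 3.18 (SD, n = 8), that of the 3 most abundant 47.8% ± 1.67, that of the 10 most abundant 74.1% ± 1.13 and that of the 50 most abundant 96.4% ± 0.234. The first 3 or 4 microRNAs of a library passed 50% of its reads, 26 to 30 passed 90% and 84 to 97 passed 99%. The effective number of microRNAs, the inverse of the summed squared shares, which gives how many equally abundant microRNAs would produce the same concentration, was 10.2 ± 1.08. The SD between libraries was largest for the first microRNA and smallest for the first 50, whose share is so near the whole that little room for spread remains.

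**Figure D1:**
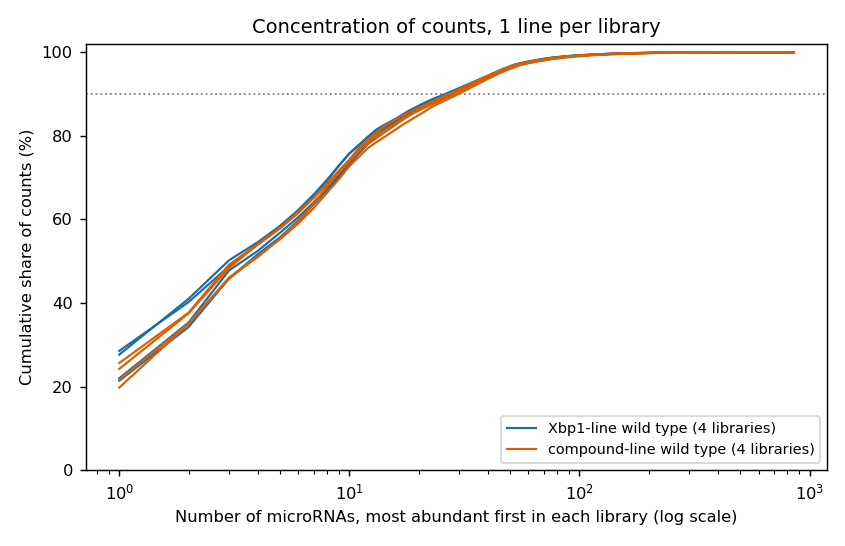
Cumulative share of microRNA counts (%, vertical axis) against the number of microRNAs counted from the most abundant in each library (horizontal log axis), with 1 line per library coloured by wild-type group and a dotted line at 90%. The 8 lines start between 19.7% and 28.5% and cross 90% at 26 to 30 microRNAs.

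Between the wild types 6 measures were compared, and none passed. They were the shares of the first 1, 10 and 50, the number for 90%, the effective number and the number read after thinning. The share of the first 3 and the numbers for 50% and 99% were not compared. The share of the 10 most abundant was 74.5% ± 1.44 (SD, n = 4) in the Xbp1-line and 73.7% ± 0.708 in the compound-line wild type (exact permutation test, two-sided, p = 0.343). The number needed for 90% of the reads was 27.25 ± 0.957 against 28.75 ± 1.26, at p = 0.171 in the same exact test. Over the 6 measures compared, the Benjamini-Hochberg adjusted p lay between 0.48 and 0.629. With 4 against 4 libraries the smallest p is 0.0286, so a pass after adjustment would have needed most of the 6 measures to separate the groups completely.

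Grouped by mean level in CPM, reads scaled to a total of 1000000 per library, 16 microRNAs stood at 10000 CPM or more and held 82.9% ± 0.888 of the reads (SD, n = 8). The 41 between 1000 and 10000 CPM held 14.4% ± 0.789. The 58 between 100 and 1000 CPM held 2.10% ± 0.0991, and the 134 between 10 and 100 CPM held 0.512% ± 0.0495. Of the identifiers below 10 CPM, 239 were at 1 CPM or more and held 0.0823% of the reads together, and 199 were lower and held 0.00901%. The 57 microRNAs at 1000 CPM or more thus made up nearly the whole pool in every library.

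The most abundant microRNA, MIMAT0000525, ranked first in all 8 libraries. Its share of the reads was 28.5%, 27.6%, 22.0% and 21.4% in Xbp1-line wild type 4, 5, 6 and 8. In compound-line wild type 1, 2, 3 and 4 it was 25.6%, 21.6%, 19.7% and 24.2%. The groups overlapped, and the 2 highest shares came from Xbp1-line wild type 4 and 5, the 2 deepest of the 8 libraries. Compound-line wild type 3, at 882108 reads, had the lowest share, while the 2 shallowest, compound-line wild type 1 and 4, had 25.6% and 24.2%. A relation of this share to depth was not tested.

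MIMAT0000210 held 12.6% ± 1.40 (SD, n = 8), from 10.7% to 15.3%, and MIMAT0000221 held 11.3% ± 1.75, from 8.58% to 13.5%. They took ranks 2 and 3 in every library, in this order in 5 of the 8. Their means therefore do not set an order between them. MIMAT0000221 was lowest in Xbp1-line wild type 4 and 5, at 8.58% and 9.23%, the libraries in which MIMAT0000525 was highest; shares of 1 total are not independent of each other, and the part of depth in this was not tested.

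MIMAT0000530 held 5.12% ± 0.505 and took rank 4 in all 8 libraries. Below it the order was less firm. MIMAT0000533 (3.97% ± 0.302), MIMAT0000539 (3.75% ± 0.278), MIMAT0000122 (3.74% ± 0.267), MIMAT0000154 (3.46% ± 0.508), MIMAT0000521 (3.26% ± 0.295) and MIMAT0000531 (3.02% ± 0.393) took ranks between 5 and 11 in single libraries. Each of these 6 exceeded the next in only 4 to 6 of the 8 libraries, and no test between neighbours was run.

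MIMAT0000515 (2.36% ± 0.377) and MIMAT0000527 (2.11% ± 0.173) followed, and MIMAT0000527 exceeded the next microRNA in all 8 libraries. After this step the mean share fell to near 1%. MIMAT0000150, MIMAT0000248, MIMAT0004825 and MIMAT0000652 averaged 1.13%, 1.12%, 1.09% and 1.00%. MIMAT0000516, MIMAT0000648, MIMAT0000670 and MIMAT0000126 averaged 0.902%, 0.839%, 0.780% and 0.773%. In these last 8 the mean order held against the next microRNA in 2 to 6 of the 8 libraries. The ranking thus had 1 leader, a pair without a firm order, MIMAT0000530 on its own, and then stretches in which neighbours changed places between libraries.

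**Figure D2:**
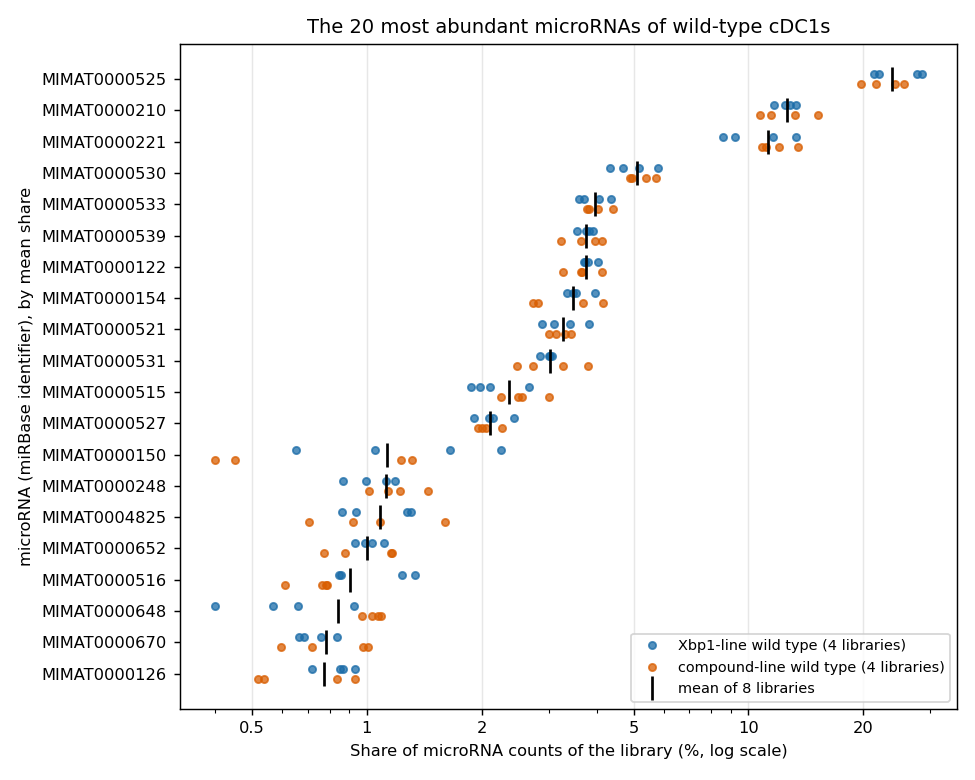
Share of the library's microRNA counts (%, horizontal log axis) for the 20 microRNAs of largest mean share, 1 point per library coloured by wild-type group, with a black bar at the mean of 8 libraries. MIMAT0000525 stands apart at 19.7% to 28.5%, and MIMAT0000150 has the widest scatter of the 20, from 0.400% to 2.25%.

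The sets of leading microRNAs were largely shared between libraries. The 3 most abundant were the same in all 8. Of the 10 most abundant, 8 were common to all libraries and 11 appeared in any. For the 20 most abundant these numbers were 16 and 23, and for the 50 most abundant 43 and 54. Across the 249 microRNAs at 10 CPM or more, which are not independent replicates, Spearman's rho between libraries lay between 0.937 and 0.958 within the Xbp1 line, between 0.900 and 0.944 within the compound line and between 0.891 and 0.961 for pairs across the lines. Pairs across the lines were thus inside or close to the range within them. Compound-line wild type 4, the shallowest library, had the lowest median rho with the others, 0.900.

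Spread between libraries was set against counting error, the relative error that the number of reads alone would give. Among the 16 microRNAs at 10000 CPM or more the median coefficient of variation (CV) over 8 libraries was 13.2%, where counting error alone gave a median of 0.737%. It was 16.8% against 2.39% between 1000 and 10000 CPM, 22.3% against 8.29% between 100 and 1000 CPM and 50.9% against 27.2% between 10 and 100 CPM. In the upper classes the libraries thus differed by many times the counting error. Differences between mice and between preparations cannot be told apart here.

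Among the 57 microRNAs above 1000 CPM, 15 had a CV under 10% and 40 under 20%, and the highest library exceeded the lowest by a median of 1.57-fold. The steadiest, picked after their values were seen, was MIMAT0000379, with a lowest level of 1755 CPM, a median of 1999 and a highest of 2125 and a CV of 5.74%. MIMAT0003454 ran from 6119 to 7329 CPM, with a median of 6523 and a CV of 6.67%. Among the 10 most abundant, MIMAT0000122, MIMAT0000539 and MIMAT0000533 had CVs of 7.12%, 7.42% and 7.61%.

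A pair of abundant microRNAs, also picked after their values were seen, had a CV above 50%. MIMAT0000150 stood at 6519, 16566, 22495 and 10534 CPM in Xbp1-line wild type 4, 5, 6 and 8. In compound-line wild type 1, 2, 3 and 4 it stood at 12322, 13152, 4520 and 3998 CPM. The libraries differed 5.63-fold within wild-type cells, both groups held high and low libraries, and its rank ran from 12 to 28. It was read at least 1331 times in each library. Counting error, taken here from its mean read count and not from CPM as for the classes and the figure, gave a CV of 1.14%, against the 56.2% measured.

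For MIMAT0003151, compound-line wild type 2 gave 10205 CPM, and the other 7 libraries lay between 828 and 1272 CPM. Its mean of 2176 CPM over all 8 therefore describes none of them, and its median was 1084 CPM. Its count in that library was 5062 reads.

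**Figure D3:**
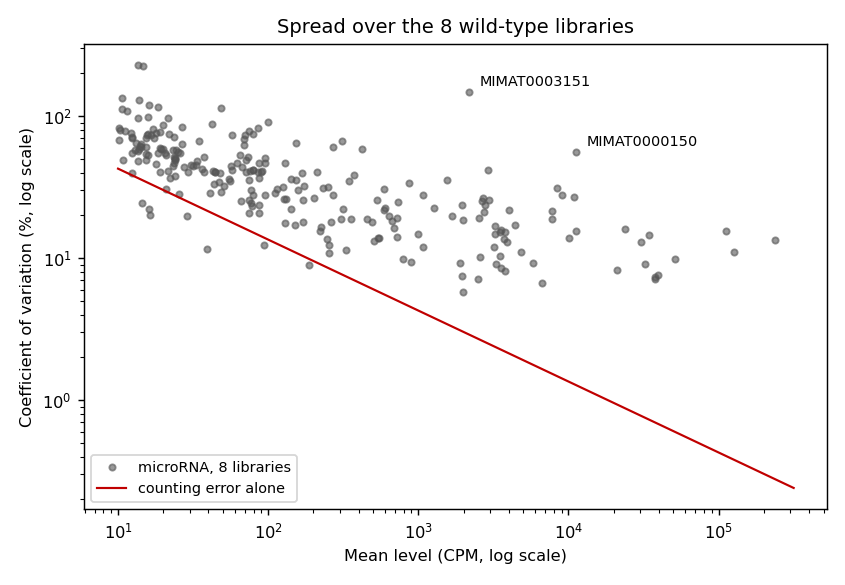
Coefficient of variation over the 8 wild-type libraries (%, vertical log axis) against the mean level (CPM, horizontal log axis), 1 point per microRNA at 10 CPM or more, with a line for counting error alone. Above 1000 CPM nearly all points lie far above the line, and MIMAT0003151 and MIMAT0000150 have the highest values there, at 149% and 56.2%.

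Whether a level depended on which wild-type group was read was tested with edgeR's quasi-likelihood fit of the 8 libraries. Of 215 microRNAs tested, 2 passed at an adjusted p under 0.05, or 0.93%, and both were higher in the compound-line wild type. Both were of low or moderate abundance. All libraries of 1 group lay above all of the other for 9 of the 215, or 4.19%, and 21 had an unadjusted p under 0.05. Without any difference between the groups, full separation would occur at a rate of 0.0286 and such a p at a rate of 0.05.

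MIMAT0014834 was read 25, 31, 21 and 13 times in Xbp1-line wild type 4, 5, 6 and 8 and 79, 109, 52 and 64 times in compound-line wild type 1, 2, 3 and 4. On TMM-scaled library sizes this was 28.5 ± 3.25 against 170 ± 75.8 CPM (SD, n = 4). The log2 fold change, compound over Xbp1 line, was 2.57 with an SE of 0.41, a 95% interval of 1.66 to 3.47 and an edgeR adjusted p of 0.0124. All compound-line libraries lay above all Xbp1-line libraries. The call was lost without Xbp1-line wild type 4 (edgeR adjusted p 0.0887), without Xbp1-line wild type 5 (0.0641), without compound-line wild type 1 (0.0550) and in a fit of all 16 libraries (0.0942), and the log2 fold change lay between 2.38 and 2.89 under the 15 alternatives run.

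MIMAT0003493 stood at 143 ± 30.2 against 396 ± 131 CPM (SD, n = 4), on 76 to 129 and 150 to 200 reads per library. Its log2 fold change was 1.47 with an SE of 0.28, a 95% interval of 0.85 to 2.08 and an edgeR adjusted p of 0.0263, and the groups did not overlap. The call was lost under 8 of the 15 alternatives, which were thinning to the smallest total, the fit of all 16 libraries and leaving out any one of Xbp1-line wild type 4, 5 or 6 or compound-line wild type 1, 2 or 4, with an edgeR adjusted p of 0.0506 to 0.143, and its log2 fold change lay between 1.33 and 1.71 under the 15 alternatives.

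Among the 20 most abundant microRNAs 0 passed in edgeR, and 2 had an unadjusted p under 0.05. DESeq2 and limma on the deposited log2 values also called 0 of them. edgeR without the filter on low counts called 3, MIMAT0000150 (edgeR adjusted p 5.4e-05), MIMAT0000516 (0.00563) and MIMAT0000648 (0.0168), and edgeR without Xbp1-line wild type 8 called MIMAT0000648 (0.0255). The median size of log2 difference between the wild types was 0.11 over these 20, against 0.21 over all 215 tested. Counting error was larger at low levels, with a median of 27.2% between 10 and 100 CPM and 0.737% at 10000 CPM or more. The part of counting error in this contrast was not tested. For 2 of the 20 the groups did not overlap, against 4.19% of all tested. MIMAT0000516 held 1.07% ± 0.254 of the reads in the Xbp1-line and 0.735% ± 0.0842 in the compound-line wild type (SD, n = 4). Log2 differences here are on TMM-scaled library sizes, unlike the shares, and its value was −0.60 (SE 0.18, edgeR adjusted p 0.230). MIMAT0000648 held 0.638% ± 0.219 and 1.04% ± 0.0506, with a log2 difference of 0.66 (SE 0.21, edgeR adjusted p 0.256). For MIMAT0000525 the log2 difference was −0.18 (SE 0.15), and for MIMAT0000210 and MIMAT0000221 it was −0.03 (SE 0.13) and 0.12 (SE 0.12). On total counts alone it was −0.54 for MIMAT0000516, 0.71 for MIMAT0000648 and 0.01 for MIMAT0000210. A p that misses the threshold does not show that the levels were equal.

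**Figure D4:**
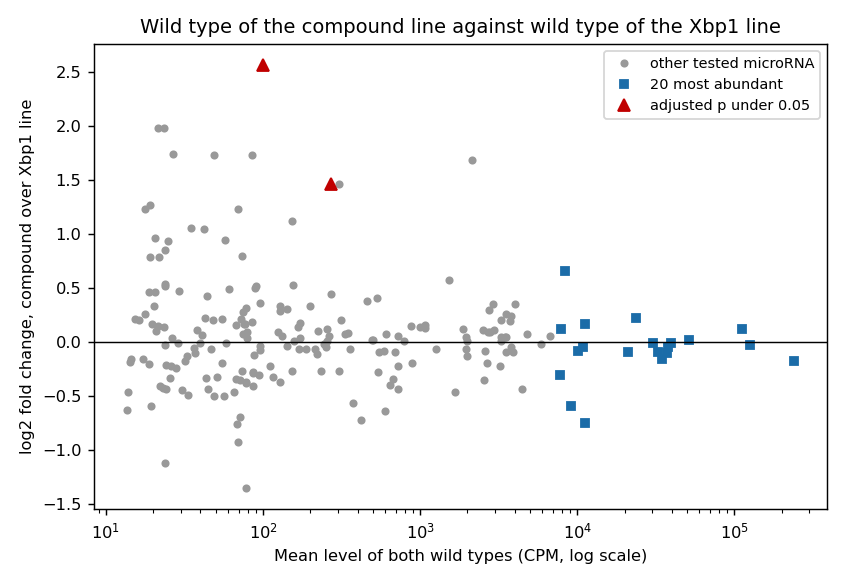
Log2 fold change of the compound-line over the Xbp1-line wild type (vertical axis) against the mean level of both (CPM, horizontal log axis) for 215 tested microRNAs, with squares for the 20 most abundant and triangles for the 2 with an adjusted p under 0.05. The squares lie between −0.75 and 0.66, and both triangles, at 2.57 and 1.47, lie well below 1000 CPM.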

How the data were processed

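Small RNA libraries were made from sorted cDC1s lysed in Qiazol, with a miRNeasy Micro extraction, the TruSeq small RNA kit and Pippin Prep size selection, per the labels' protocols. The authors deposited a table of raw read counts per mature microRNA, and log2 values for 473 of the 853 identifiers. From the values, each deposited log2 value equals the log2 of the count plus 0.5 and a constant per library. Bowtie 1.1.2, cutadapt 1.8.1, limma 3.42.2, FastQC 0.11.3 and the builds mm10 and GRCm38 are listed, without roles, in the submitters' processing notes. How reads matching several microRNAs were counted is not given in the sources used here. Near-identical microRNAs may share reads, and molecular identifiers are not mentioned, so counts may include PCR copies. Adapter ligation favours some sequences, so levels of different microRNAs are levels of reads.

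Shares are percent of a library's total count and CPM in the descriptions are scaled to a total of 1000000. Groups came from the sample descriptions. The wild types were compared with edgeR 4.0.16 in R 4.3.3 on the 8 libraries (TMM, filterByExpr with a count minimum of 10, quasi-likelihood F tests, two-sided, Benjamini-Hochberg). The code was first run on simulated counts that gave every microRNA the same biological variation. That run has no bearing on the calls given here. The filter left 215 microRNAs holding at least 99.8% of each library. The common biological coefficient of variation was 30.3%. Library measures were compared with exact permutation tests. Alternatives were other scalings, no filter, DESeq2 1.42.0, limma 3.58.1 on the deposited log2 values, all 16 libraries in 1 fit, thinning and leaving out each library. Pairs of libraries differed by more than counting noise (chi-square per degree of freedom at least 20.6), so none was counted as deposited more than once.

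The rule for naming took the 20 microRNAs of largest mean share and, in each direction, the called ones of smallest p, which took in both calls. Members and lists were chosen with earlier results of these data known. The 19 lists of microRNA names, including markers of other cell types, matched no identifier and were not tested, and the planned tests of seed families and strand ratios were not run.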

Additional observations from a re-analysis of the deposited data

Results flagged for a closer look

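A single library is given here where it lay so far from the other 3 of its group that the gap, divided by the whole range of the group, passed Dixon's 95% limit for 4 samples. The search covered the CPM of the 57 microRNAs at 1000 CPM or more and of the 2 called between the wild types, and the 6 measures of concentration and number detected, in both wild-type groups, or 130 groups of 4 values. About 1 in 20 groups passes by chance, and 8 did.

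In the Xbp1-line wild type, MIMAT0000674 was low in replicate 4, at 3442 CPM while its group's other libraries ran from 4135 to 4255 CPM. MIMAT0000545 was low in replicate 6, at 2507 CPM next to 2645 to 2665 CPM, and MIMAT0000215 in replicate 5, at 2207 CPM next to 2399 to 2419.8 CPM. MIMAT0000208 was high in replicate 6, at 2156 CPM next to 817 to 1034 CPM. In the compound-line wild type, replicate 4, the library with the fewest reads, was low for MIMAT0000516, at 6098 CPM next to 7638 to 7861 CPM, and for MIMAT0000160, at 3553 CPM next to 4311 to 4456 CPM. Replicate 2 was high for MIMAT0000546, at 3999.6 CPM next to 3334 to 3410.0 CPM, and for MIMAT0003151, at 10205 CPM next to 844 to 1272 CPM. The gap made up between 0.838 and 0.954 of the range in these 8, and the cause was not tested.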

How the results depend on the processing

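The shares of the 20 most abundant microRNAs moved by less than 1 SD in all 220 recomputed values, and the same 20 microRNAs led with pooled or thinned counts. Leaving out 1 of 8 libraries cannot move a mean by 1 SD, and random thinning keeps the expected share. Most of these 220 values could therefore not have failed, and they are no measure of stability. With 1 library left out in turn, the share of the 10 most abundant lay between 73.9% and 74.3% and the number needed for 90% of the reads between 27.7 and 28.3. The 2 calls between the wild types were not stable. edgeR called 11 microRNAs without the filter, 1 after thinning and 0 in a fit of all 16 libraries (24 at an unadjusted p under 0.05), and DESeq2 called 4. With 1 library left out in turn edgeR called 0 to 6: 0 without Xbp1-line wild type 4, Xbp1-line wild type 5 or compound-line wild type 1 (16, 14 and 18 at an unadjusted p under 0.05), 1 without compound-line wild type 2 or 4, 5 without Xbp1-line wild type 8 and 6 without compound-line wild type 3. Of the 20 most abundant, MIMAT0000150, MIMAT0000516 and MIMAT0000648 passed without the filter, and MIMAT0000648 also without Xbp1-line wild type 8. The causes were not tested. No direction reversed in the alternatives run for these 3 or for the 2 called. No paired analysis was possible because the wild-type groups share 1 replicate number in the descriptions. The alternatives for seed families and strand ratios were not run, since identifiers could not be matched to sequences.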

Other observations

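The reads fell mostly on identifiers with low numbers. miRBase numbers its mature sequences in the order of their entry, and the 163 identifiers numbered below 1000, or 19.1% of the table, held 94.5% ± 0.492 of the reads (SD, n = 8), from 93.8% to 95.2%. Of the 20 most abundant microRNAs 19 had such a number, of the 50 most abundant 42 and of the 100 most abundant 64. Among the 690 identifiers from 1000 upwards, MIMAT0004825 had the largest mean share, 1.09%, and 157 were at 0 in all 8 wild-type libraries, against 9 of the 163 below. This limit was chosen after the data were seen.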
